A study of Mus musculus with 6 samples.

Results

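Oxidative phosphorylation was described here through the genes of its 5 complexes in the mouse uterus on day 4 of pregnancy. Members were chosen by symbol: genes starting with Ndufa, Ndufb, Ndufc, Ndufs, Ndufv, Sdha to Sdhd, Uqcr, Cox4 to Cox8 or Atp5, together with the mt-Nd, mt-Co, mt-Cytb and mt-Atp genes. Of 56748 gene IDs, 124 had such a symbol, 13 were left out by a pseudogene type in GENCODE M21 or by -ps in the symbol, and 111 remained. The 13 were 12 processed pseudogenes and Ndufb1-ps, which GENCODE M21 types as a non-coding RNA and RefSeq (GRCm38.p6) as the protein-coding complex I gene Ndufb1. Ndufb1-ps had 136, 153 and 152 TPM in Zip10 cKO and 180, 138 and 137 TPM in Control and is not among the members below. Of the 12 processed pseudogenes, Ndufb4c had 111, 117 and 112 TPM in Zip10 cKO and 142, 113 and 117 TPM in Control. It matched the member Ndufb4 at 100% identity along 390 bases and averaged 369 counts, beside 977 for Ndufb4. The Ndufb4 count thus also depended on how shared reads were split. The 111 comprised 98 nuclear genes and 13 genes of the mitochondrial genome. The nuclear genes were 85 subunit genes (36 of complex I, 4 of complex II, 8 of complex III, 20 of complex IV and 17 of complex V), 12 Ndufaf and Sdhaf assembly factors, and Atp5s. The mitochondrial genes encode 7 subunits of complex I, 1 of complex III, 3 of complex IV and 2 of complex V. A total of 107 members had enough counts to be tested.

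Complexes I to IV pass electrons from NADH and succinate to oxygen. Complexes I, III and IV also pump protons across the inner mitochondrial membrane, and complex V, the ATP synthase, uses that gradient to make ATP. Every complex except complex II is built from subunits made in both compartments, so nuclear and mitochondrial transcripts have to supply matching parts. In the uterus on the day of receptivity this machinery serves epithelium, stroma, smooth muscle and vessels alike.

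The study sequenced poly(A) RNA from 3 Zip10 cKO and 3 Control uteri collected at 1600 h on day 4. Zip10, the product of Slc39a10, is a zinc importer. The genotype is given as a conditional knockout confined to the uterus for Zip10 cKO and as WT for Control. No source used here names the promoter that drives Cre, the ages or the strain, and nothing states whether each library came from 1 animal, so the p-values measure the spread between these libraries.

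The libraries held 19643093 to 22809577 counts. Slc39a10 (ENSMUSG00000025986) had 39.5, 72.5 and 79.8 CPM (each count relative to its library's TMM-scaled total) in Zip10 cKO, against 54.6, 70.4 and 66.2 CPM in Control. Its log2 fold change, Zip10 cKO over Control throughout, was 0.005 ± 0.24 (SE; adjusted p = 0.998, edgeR's quasi-likelihood test), so the gene total did not separate the genotypes. A total over all exons does not check a deletion that leaves other exons transcribed. The tissue label was met by its markers: all 12 epithelial, 12 stromal and 12 smooth muscle markers were detected. Of 12 striated muscle markers the myosins Myh1, Myh2 and Myh4 were at 0, but 5 others had enough counts to be tested. Among those 5, Acta1 had 100 to 312 CPM and Tnnt3 4.25 to 7.23 CPM over the libraries.

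Some sequences set what the values below can mean. Several mitochondrial genes, among them mt-Co2, mt-Atp6, mt-Co3, mt-Nd4l and mt-Nd3, have near-identical copies in a pseudogene cluster on chromosome 1. The stretches below (GENCODE M21 transcripts, GRCm38) show how few bases, or none, can tell reads of a gene from those of its copy. In mt-Nd3, at chrM:9459-9506 on the plus strand, and its copy Gm28438, capitals mark the single base that differs along 345 aligned bases:
mt-Nd3: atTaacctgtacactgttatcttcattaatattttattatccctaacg
Gm28438: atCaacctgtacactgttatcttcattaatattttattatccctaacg
In mt-Co2, at chrM:7013-7103 on the plus strand, and its copy Gm28661, no base differed along 681 aligned bases, and the first 91 bases are:
mt-Co2: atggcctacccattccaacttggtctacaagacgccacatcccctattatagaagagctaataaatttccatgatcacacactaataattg
Gm28661: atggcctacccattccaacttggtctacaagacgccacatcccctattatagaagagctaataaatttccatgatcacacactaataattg
The mt-Atp8 transcript, at chrM:7766-7969 on the plus strand, is shown whole because it is the shortest member and ends in 43 bases, in capitals, that it shares with the start of mt-Atp6:
mt-Atp8: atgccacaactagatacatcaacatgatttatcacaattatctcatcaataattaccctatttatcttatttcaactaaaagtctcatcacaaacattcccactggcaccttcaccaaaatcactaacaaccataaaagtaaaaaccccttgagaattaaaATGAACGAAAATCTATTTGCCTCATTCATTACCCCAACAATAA

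Promoters of the nuclear subunits were searched for motifs of 4 factors known to act on such genes, and each of the 4 motifs was found in a minority. RefSeq promoters (GRCm38.p6, 250 bases before to 50 after the gene start, both strands searched) were found for 67 of the 81 tested nuclear subunits. The core GCATGCGC of the motif of NRF1, a factor known to bind many of these genes, occurred in 10 of the 67 (14.9%) and in 3.05% of the promoters of 27025 genes. The ETS motif CCGGAAGT, which GABPA can bind, occurred in 5 (7.46%, against 4.31% of all promoters), the YY1 motif AAGATGGCG in 7 (10.4%, against 1.64%) and the GC box GGGCGG in 27 (40.3%, against 38.2%). The median log2 fold change was -0.10 with and -0.12 without the NRF1 core, -0.095 with and -0.11 without the ETS motif, -0.14 with and -0.11 without the YY1 motif, and -0.11 either way for the GC box. A match describes the letters of this window and not binding. Shown here, on each gene's own strand with the NRF1 core (which overlaps its own reverse complement in both genes) or the reverse complement of the ETS motif in capitals, are a complex III core protein gene at chr9:108936398-108936697 (plus strand), an ATP synthase c subunit gene at chr15:102670998-102671297 (minus strand) and the complex III hinge protein gene at chr4:116075021-116075320 (minus strand):
Uqcrc1: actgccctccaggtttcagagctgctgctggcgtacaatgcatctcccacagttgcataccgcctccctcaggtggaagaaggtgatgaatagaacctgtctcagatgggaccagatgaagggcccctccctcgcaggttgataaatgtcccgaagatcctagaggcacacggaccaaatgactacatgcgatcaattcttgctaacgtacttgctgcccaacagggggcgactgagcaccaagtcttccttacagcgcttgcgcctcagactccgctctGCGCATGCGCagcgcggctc
Atp5g2: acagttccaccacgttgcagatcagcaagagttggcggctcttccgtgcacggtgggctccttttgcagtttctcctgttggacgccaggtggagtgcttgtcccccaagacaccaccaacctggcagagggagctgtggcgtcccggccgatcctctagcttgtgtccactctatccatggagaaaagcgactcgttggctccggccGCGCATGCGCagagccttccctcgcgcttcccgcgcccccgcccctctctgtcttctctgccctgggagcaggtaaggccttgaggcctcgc
Uqcrh: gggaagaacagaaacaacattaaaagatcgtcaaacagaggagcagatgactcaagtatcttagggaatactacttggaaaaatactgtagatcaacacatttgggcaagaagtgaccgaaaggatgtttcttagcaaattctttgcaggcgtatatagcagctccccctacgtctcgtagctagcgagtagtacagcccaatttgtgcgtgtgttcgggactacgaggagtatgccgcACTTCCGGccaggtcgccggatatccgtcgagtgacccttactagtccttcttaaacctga

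No member passed the test between Zip10 cKO and Control. By edgeR's quasi-likelihood test 0 of 107 members had an adjusted p under 0.05, with 0.0% of all 16737 genes tested called, and the smallest adjusted p among members was 0.747. At an unadjusted p under 0.05 there was 1 member, the complex I accessory subunit Ndufa5, where 6.46% of all genes passed. DESeq2 called 0 members, with 0.128% of its 28980 genes called, and 2 members at an unadjusted p under 0.05, where 4.14% of genes passed. Limma-voom called 0 members, with 0.0% of all genes called, and 1 at an unadjusted p under 0.05, where 6.42% passed.

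The nuclear subunits nevertheless had small fold changes of mostly one sign. Of 81 tested, 76 had a log2 fold change below 0 (93.8%, where 50.6% of all genes tested did), and their median was -0.12, beside -0.002 over all genes. The values ran from -0.36 for Ndufc2 to 0.68 for Cox8b. The other 4 above 0 were Ndufs1, Sdha, Ndufv3 and Ndufa4, at 0.012 to 0.069. For 75 of the 81 the 95% interval of the fold change lay within 1.5-fold either way, which held for 53.7% of all genes. The 12 assembly factors had a median of -0.13 and all 12 were below 0, but without Control 1 the median was -0.025 with 7 below 0 (50.2% of all genes). Atp5s had -0.36. In bulk tissue, fewer cells of a type and less RNA per cell cannot be told apart.

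**Figure D1:**
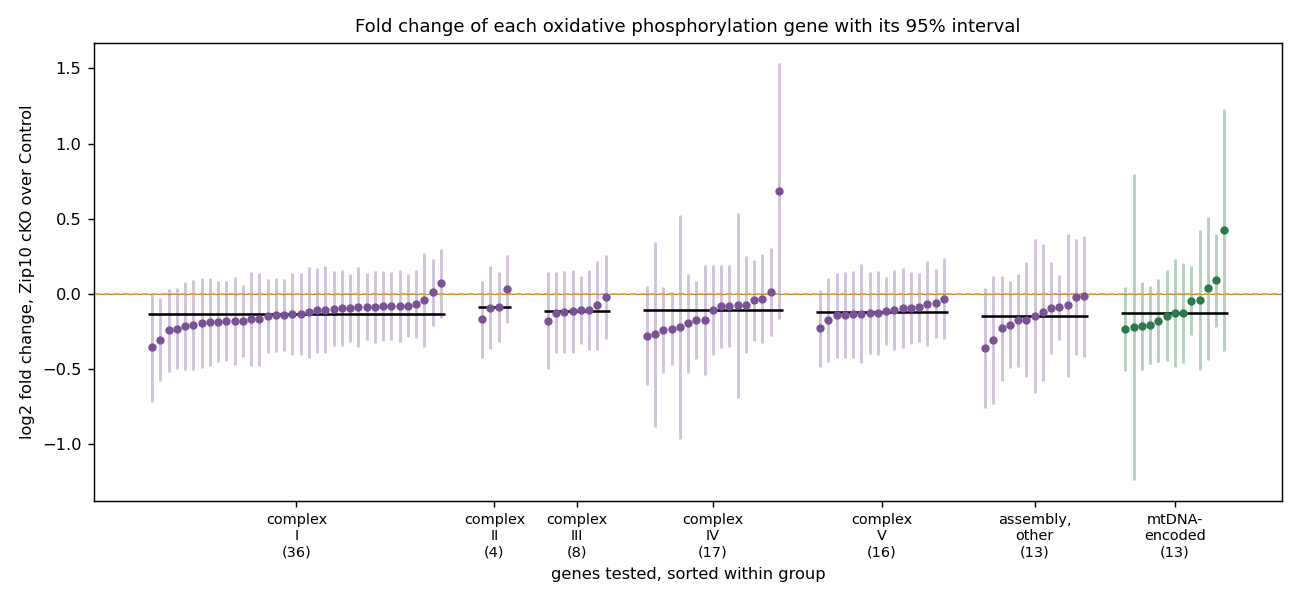
Log2 fold change (Zip10 cKO over Control) of each of the 107 tested members, sorted within its group on the x axis, as points with 95% intervals; black lines are group medians and the orange dashed line is the median of all genes tested. Nearly all points lie a little below 0, and the isolated high points are Cox8b in complex IV and mt-Co2 among the mitochondrially encoded genes.

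The per-library levels placed much of this shift in 1 library. The median deviation of the 81 nuclear subunits from their own mean over 6 libraries (log2 CPM) was -0.047, 0.0 and -0.10 in Zip10 cKO, against 0.24, -0.075 and 0.020 in Control. The groups overlapped, with Control 1 far above the rest and Control 2 lower than Zip10 cKO 1 and 2. Control 1 was the highest of the 6 libraries for 70 of the 81 genes (86.4%, where it was highest for 22.6% of all genes). Without Control 1 the median log2 fold change was -0.045 and 64 of the 81 genes were below 0 (50.2% of all genes).

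**Figure D2:**
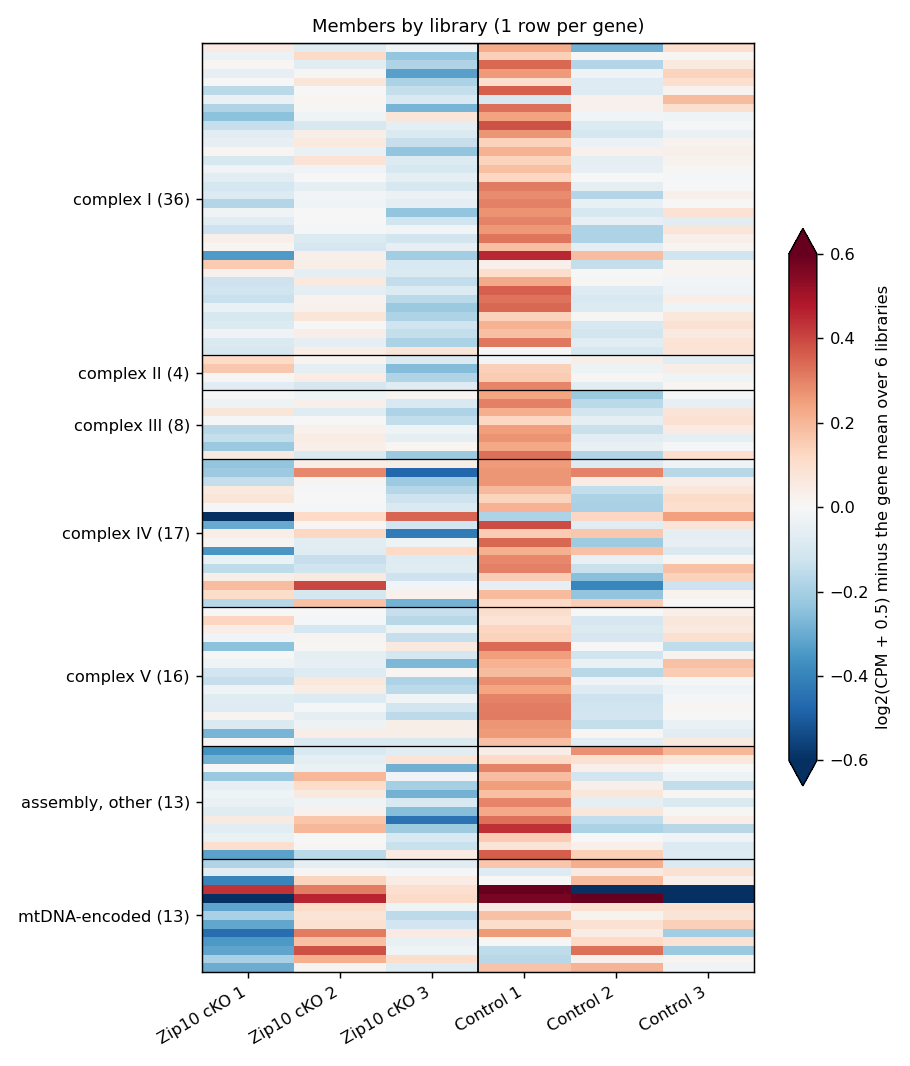
Each row is 1 of the 107 tested members, in symbol order within its group, and each column 1 library; colour gives log2(CPM + 0.5) minus the gene's mean over the 6 libraries, with values beyond 0.6 either way drawn in the end colours. Control 1 is the high column for the nuclear groups, and Zip10 cKO 1 the low one for most mitochondrially encoded genes.

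Transcript length moved with the same library. The nuclear subunit genes are short, with a median length of 658 bases beside 2415 for all genes tested, and 71 of the 81 fell in the shortest length quintile (141 to 1349 bases). All 3350 genes of that quintile had a median of -0.11 with 69.0% below 0, and the 71 subunits in it had -0.13 with 68 below 0. In the longest quintile the median over all genes was 0.11. In Control 1 the median deviation of the shortest genes was 0.17 and that of the longest -0.16, the widest span of the 6 libraries. After a trend on length was removed the nuclear subunits had a median of -0.065 with 70 of 81 below 0 (54.3% of all genes), and with Control 1 also left out -0.026 with 53 of 81 (51.4% of all genes). What length contributed beyond these values was not tested.

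**Figure D3:**
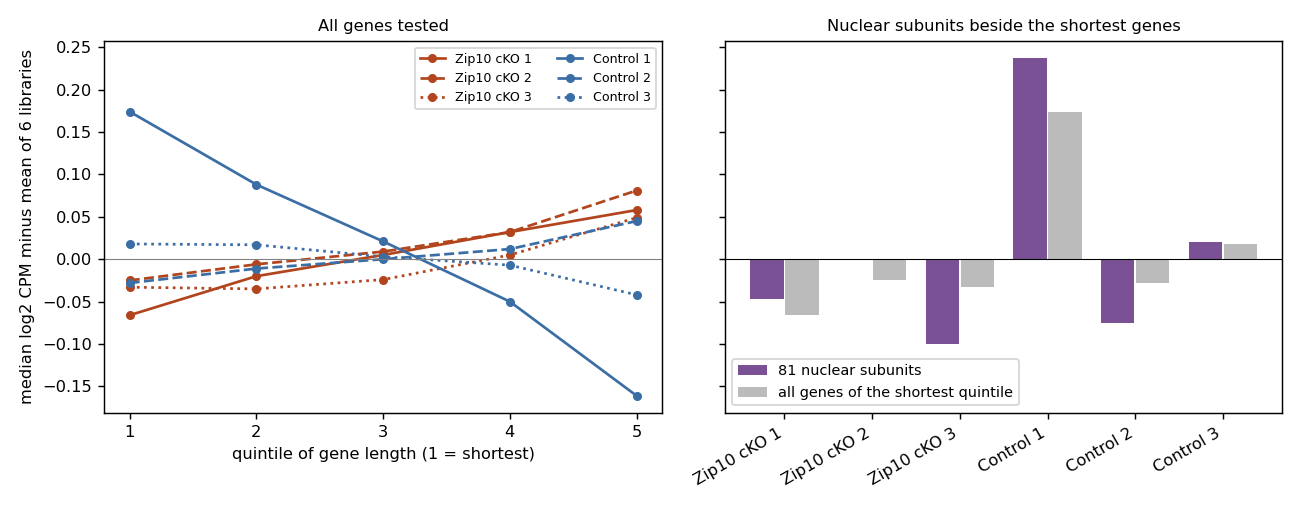
Left, median log2 CPM of all genes tested minus their mean over 6 libraries, by quintile of gene length, 1 line per library. Right, the same deviation for the 81 nuclear subunits (purple) and for all genes of the shortest quintile (grey); both are highest in Control 1, at 0.24 and 0.17.

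Summed levels of cell type markers overlapped between the groups for epithelium, smooth muscle and macrophages, while most markers of each list had fold changes of one sign. All 12 smooth muscle markers were above 0, with summed levels of 18530, 14100 and 13530 CPM in Zip10 cKO and 8696, 8056 and 14510 CPM in Control. Their median was 0.54, with 0.38 without Control 2, 0.40 without Zip10 cKO 1, 0.41 without Control 1 and 0.86 without Control 3. Of 12 epithelial markers, 11 were below 0 (median -0.29), with summed levels of 809, 1228 and 1002 CPM in Zip10 cKO and 1480, 1359 and 970 CPM in Control. The epithelial median was -0.15 without Zip10 cKO 1, -0.19 without Control 1, -0.56 without Zip10 cKO 2 and -0.47 without Control 3.

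All 10 macrophage markers were above 0 (median 0.60), with 902, 440 and 604 CPM in Zip10 cKO and 564, 388 and 487 CPM in Control, but without Zip10 cKO 1 the median was 0.22 with 1 below 0. Of 11 tested lymphocyte markers 10 were above 0 (median 0.66, and 0.26 with 5 below 0 without Zip10 cKO 1), with 76.6, 60.1 and 62.6 CPM in Zip10 cKO and 51.5, 39.5 and 47.4 CPM in Control, which did not overlap. Of 12 stromal markers 8 were above 0 (median 0.19, and 0.12 without Control 1), with 18120, 17720 and 15680 CPM in Zip10 cKO and 11490, 13210 and 14820 CPM in Control, which did not overlap either. The largest terms of these stromal sums were the collagen genes Col3a1, Col1a1 and Col1a2. All 3 Zip10 cKO libraries were above all 3 Control libraries for 5 of the 12 stromal markers (6.93% of all genes). These were Lum, Col1a1, Col1a2, Col3a1 and Postn, with fold changes of 0.43 to 0.88. Of the 4 stromal markers below 0, Hand2 had all 3 Zip10 cKO libraries below all 3 Control libraries (-0.26 ± 0.094), beside 5.78% of all genes. Of 10 endothelial markers 9 were below 0 (median -0.13, with -0.23 without Control 1 and -0.075 without Zip10 cKO 1 or without Control 3), with 1006, 1116 and 1094 CPM in Zip10 cKO and 1030, 1208 and 1299 CPM in Control. None of these markers was called by edgeR's quasi-likelihood test, and their part in the subunit values was not tested.

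In complex I, which oxidises NADH, the 36 nuclear subunits had a median level of 164.5 TPM (the deposited transcript level, which corrects for length), from 61.7 TPM for the core subunit Ndufs1 to 414 TPM for the accessory subunit Ndufa3. Of these, 34 had fold changes below 0 with a median of -0.13. The 7 core subunits, which carry the redox centres, had a median of -0.14 (6 below 0), and the 29 accessory subunits -0.13 (28 below 0). Core and accessory subunits thus had about the same median.

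Ndufa5 (accessory, in the arm that projects into the matrix) had 39.6, 45.2 and 37.0 CPM in Zip10 cKO, against 56.6, 45.8 and 48.0 CPM in Control. The highest Zip10 cKO library lay just under the lowest Control library. Its log2 fold change was -0.30 ± 0.12 (SE; adjusted p = 0.747, edgeR's quasi-likelihood test). Ndufc2, an accessory subunit of the membrane arm, had 78.0, 101 and 85.6 CPM in Zip10 cKO and 135, 113 and 90.9 CPM in Control. These groups overlapped, and the fold change was -0.36 ± 0.16 (adjusted p = 0.747, same test). Ndufa12 had 90.2, 93.8 and 74.3 CPM in Zip10 cKO and 111, 91.8 and 102 CPM in Control, also overlapping.

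The most abundant nuclear transcripts of complex I differed between the groups by less than the spread in Control. Ndufa3 averaged 87.6 ± 3.17 CPM in Zip10 cKO and 92.8 ± 9.34 CPM in Control (SD, n = 3 each). Ndufa7 averaged 94.9 ± 2.63 CPM in Zip10 cKO and 110 ± 19.7 CPM in Control, and Ndufb8 averaged 112 ± 4.94 CPM in Zip10 cKO and 121 ± 18.5 CPM in Control. In Ndufa7 and Ndufb8 the highest library was Control 1.

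Complex II, succinate dehydrogenase, is the only complex encoded wholly in the nucleus and also works in the citric acid cycle. Its flavoprotein gene Sdha had 198, 184 and 172 CPM in Zip10 cKO, against 180, 187 and 174 CPM in Control, which overlapped fully (log2 fold change 0.031 ± 0.099). Sdhd, a membrane anchor, had 96.0, 93.5 and 95.2 CPM in Zip10 cKO, against 123, 96.1 and 101 CPM in Control. All 3 Zip10 cKO libraries were below all 3 Control libraries by a narrow gap, and the fold change was -0.17 ± 0.11. The iron-sulphur subunit Sdhb and the other anchor Sdhc had -0.093 ± 0.12 and -0.088 ± 0.10.

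Complex III passes electrons from ubiquinol to cytochrome c. All 8 of its nuclear subunits had fold changes below 0, with a median of -0.11 and a range of -0.18 to -0.020. The hinge protein Uqcrh had the highest level, 575 TPM, followed by Uqcr11 with 474 TPM and Uqcrb with 462 TPM. Uqcrh had 132, 157 and 155 CPM in Zip10 cKO and 181, 149 and 153 CPM in Control. The value of Control 1 stood alone, and the other 5 libraries lay within 132 to 157 CPM. Uqcrq had the lowest fold change of the complex, -0.18 ± 0.14, and the core protein gene Uqcrc1 had -0.11 ± 0.10.

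Complex IV, cytochrome c oxidase, reduces oxygen. The median over its 17 tested nuclear genes was -0.11 (15 below 0). Cox6c had the highest level of any nuclear member at 1153 TPM, followed within the complex by Cox6b1 with 854 TPM and Cox4i1 with 844 TPM. Cox6c had 235, 292 and 268 CPM in Zip10 cKO, against 381, 277 and 306 CPM in Control, which overlapped (log2 fold change -0.28 ± 0.14). Cox5a had 66.5, 74.5 and 63.2 CPM in Zip10 cKO, against 88.4, 75.8 and 75.6 CPM in Control, with all Zip10 cKO libraries below all Control libraries (-0.23 ± 0.11, adjusted p = 0.747, edgeR's quasi-likelihood test). Cox7c had 155, 159 and 164 CPM in Zip10 cKO and 212, 157 and 194 CPM in Control.

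Several complex IV subunits exist as alternative isoforms, and the widely expressed form made up nearly all of the transcript level in each pair. Cox4i1 made up 98.7 ± 0.375% of Cox4i1 plus Cox4i2 TPM in Zip10 cKO and 98.5 ± 0.304% in Control (SD, n = 3 each). Cox7a2 made up 97.1 ± 0.744% in Zip10 cKO and 96.8 ± 0.601% in Control beside the heart and muscle form Cox7a1. Cox6b1 made up 95.6 ± 1.38% in Zip10 cKO and 95.4 ± 1.18% in Control beside the testis form Cox6b2. These shares differed by less than their spread. Ndufa4l2, a paralog of the complex IV subunit Ndufa4 known as hypoxia inducible, held 5.22 ± 0.876% of that pair in Zip10 cKO and 5.82 ± 1.13% in Control. Cox7a2l, known for joining complexes III and IV, had a fold change of -0.20 ± 0.15.

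Cox8b, the heart and muscle isoform of subunit VIII in rodents, had the highest fold change of any member. It had 0.761, 0.966 and 0.596 CPM in Zip10 cKO, against 0.571, 0.346 and 0.520 CPM in Control. All Zip10 cKO libraries were above all Control libraries, but by a narrow gap, and the gene did not pass (log2 fold change 0.68 ± 0.37, adjusted p = 0.756, edgeR's quasi-likelihood test). Its share of Cox8a, Cox8b and Cox8c TPM was 0.946 ± 0.179% in Zip10 cKO and 0.572 ± 0.0693% in Control, while Cox8a had 183, 186 and 164 CPM in Zip10 cKO and 198, 150 and 196 CPM in Control. Of 12 striated muscle markers 5 were tested, 4 of them above 0 (median 0.43, with 0.027 without Zip10 cKO 1, 0.20 without Control 2 and 0.21 without Zip10 cKO 2), with summed levels of 335, 192 and 176 CPM in Zip10 cKO and 201, 115 and 211 CPM in Control. Their part in the Cox8b value was not tested. The other tissue-restricted forms were at or near 0: Cox6a2 had 3, 4 and 5 counts in Zip10 cKO and 2, 2 and 5 counts in Control, Cox7b2 had 1 count in each group, and Cox8c had 0.

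Complex V had 16 tested nuclear genes, all with fold changes below 0 (median -0.12, range -0.23 to -0.031). The catalytic beta subunit gene Atp5b had the highest level of the complex, 991 TPM, and 833, 755 and 678 CPM in Zip10 cKO, against 807, 711 and 797 CPM in Control. The groups overlapped throughout and its fold change of -0.031 ± 0.12 was the closest to 0 in the complex. Atp5mpl, a small membrane subunit, followed at 663 TPM, and the epsilon subunit gene Atp5e at 569 TPM.

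Atp5g1, Atp5g2 and Atp5g3 encode the same mature c subunit of the proton-driven ring. Atp5g1 had 120, 118 and 101 CPM in Zip10 cKO, against 141, 119 and 138 CPM in Control, and the fold change with the smallest p of the complex, -0.23 ± 0.11 (adjusted p = 0.747, edgeR's quasi-likelihood test). Its highest Zip10 cKO library lay above its lowest Control library. The 3 genes supplied 23.1, 41.8 and 35.1% of their summed TPM in Zip10 cKO and 24.4, 40.4 and 35.2% in Control, each within its spread. Groups that do not overlap were seen for 5 nuclear subunits below Control (Ndufa5, Ndufab1, Ndufb3, Sdhd and Cox5a, beside 5.78% of all genes) and 1 above it (Cox8b, beside 6.93% of all genes). Ndufaf2 and Atp5s also had all Zip10 cKO libraries below all Control libraries.

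Among the 13 mitochondrially encoded genes the median fold change was -0.13 on the log2 scale with 10 below 0, and the groups of all 13 overlapped. Their median deviation was -0.31, 0.14 and -0.026 in Zip10 cKO, against 0.10, 0.092 and 0.017 in Control. Zip10 cKO 1 was the lowest library for 10 of the 13 genes (76.9%, where it was lowest for 24.6% of all genes). Without Zip10 cKO 1 the median was -0.002 with 7 below 0 (51.1% of all genes). It was -0.069 without Control 2 and -0.24 without Zip10 cKO 2. Zip10 cKO 1 was also the library with the lowest epithelial and endothelial marker sums. It had the highest smooth muscle, stromal, macrophage, lymphocyte and striated muscle marker sums. The part of any of these was not tested.

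The genes of complex I on the mitochondrial genome differed among themselves. Mt-Nd1 had 4104, 4970 and 4221 CPM in Zip10 cKO, against 5307, 4768 and 4965 CPM in Control (log2 fold change -0.18 ± 0.12). Mt-Nd2 had 2342, 3101 and 2681 CPM in Zip10 cKO, against 3122, 3094 and 3204 CPM in Control (-0.21 ± 0.13). Mt-Nd6 is the only one of the 13 on the opposite strand, and its human counterpart lacks a poly(A) tail. It had 678, 844 and 791 CPM in Zip10 cKO, against 938, 960 and 822 CPM in Control (-0.23 ± 0.12), with only Zip10 cKO 2 reaching into the Control range. Mt-Nd5 had 2657, 3525 and 3267 CPM in Zip10 cKO, against 2706, 3096 and 3077 CPM in Control, for a fold change of 0.090 ± 0.14. In mt-Nd4 Zip10 cKO 2 was the highest of all 6 libraries, and the fold change was -0.13 ± 0.15.

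Mt-Cytb, the only complex III subunit made in mitochondria, had 5463, 7335 and 6670 CPM in Zip10 cKO, against 7040, 7248 and 7252 CPM in Control. Mt-Co1, the catalytic subunit of complex IV and the member with the most counts, had 11540, 16650 and 15620 CPM in Zip10 cKO, against 15150, 17280 and 15470 CPM in Control. In both genes Zip10 cKO 1 was the low library. Their fold changes were -0.15 ± 0.13 and -0.13 ± 0.16.

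For 5 of the other genes the deposited count depended on how reads were split with the chromosome 1 copy. The copy Gm28661 took 98.4 to 99.5% of the counts of its pair with mt-Co2, Gm10925 took 93.1 to 94.6% beside mt-Atp6, Gm28437 85.4 to 94.8% beside mt-Co3, and Gm10222 77.2 to 85.5% beside mt-Nd4l. For mt-Nd3, where 1 base differs, the split varied widely between libraries: Gm28438 took 19.4, 0.549 and 0.0071% beside mt-Nd3 in Zip10 cKO and 17.4, 5.83 and 25.2% in Control. For mt-Co1 and its partial copy Gm29216, which also differ by 1 base, the copy took at most 2.28%. The mean level was 243 TPM for mt-Co2 alone and 23930 TPM with its copy, and for mt-Atp6 it was 1031 TPM alone and 17530 TPM with its copy.

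Adding the copy changed the values of these genes. Mt-Co2 alone had 116, 106 and 91.7 CPM in Zip10 cKO, against 130, 52.2 and 51.4 CPM in Control, a log2 fold change of 0.42 ± 0.35. The pair had 6997, 9642 and 8345 CPM in Zip10 cKO, against 9625, 9574 and 9367 CPM in Control, a fold change of -0.19 ± 0.14. The sign thus turned when the copy was added. Mt-Co3 had -0.22 ± 0.44 alone and -0.20 ± 0.14 with its copy, so the error narrowed. Mt-Atp6 had -0.21 ± 0.11 alone and -0.27 ± 0.14 with its copy, where the pair had 4863, 6678 and 6120 CPM in Zip10 cKO and 7169, 7464 and 6717 CPM in Control. These summed values did not overlap between the groups, which held for 5.78% of all genes in the deposited counts. Mt-Nd3 had -0.042 ± 0.20 alone and -0.22 ± 0.16 with its copy, and mt-Nd4l 0.036 ± 0.21 and 0.070 ± 0.14. With the copies added the median of the 13 genes was -0.18 with 11 below 0, and 0 members passed edgeR's quasi-likelihood test (1 at an unadjusted p under 0.05), with 0.0% of genes called and 6.49% at an unadjusted p under 0.05.

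**Figure D4:**
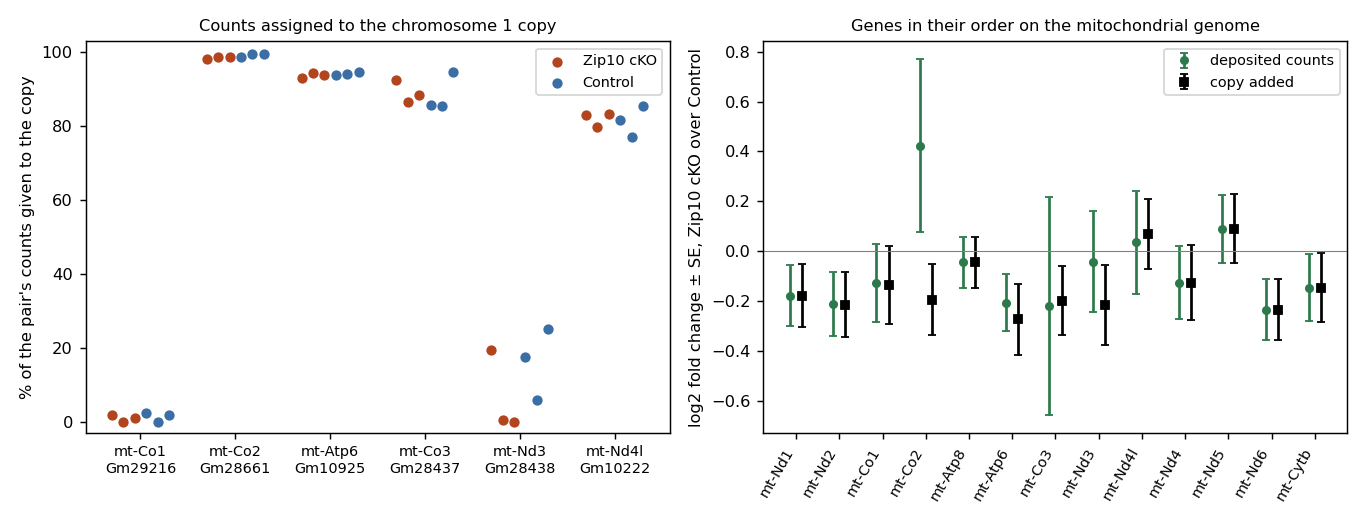
Left, percentage of the summed counts of each mitochondrial gene and its chromosome 1 copy that was given to the copy, 1 point per library. Right, log2 fold change ± SE (Zip10 cKO over Control) of the 13 genes in their genomic order, from the deposited counts (green circles) and with the copy's counts added (black squares); mt-Co2 turned from 0.42 to below 0.

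Mt-Atp8 shows the opposite limit of the TPM scale. It had 687, 720 and 712 CPM in Zip10 cKO, against 679, 746 and 763 CPM in Control, and 0.068 to 0.077% of all counts. Its level was nevertheless 46560 TPM, the highest of all members, because its effective length was 19.9 bases on average. It alone took 4.18 to 5.05% of all TPM in a library, of 9.76 to 12.3% for the 13 genes together.

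Nuclear and mitochondrial subunits were compared within each library by summed TPM. The nuclear subunits summed to 23082, 22985 and 22428 TPM in Zip10 cKO (mean 22832 ± 353, SD, n = 3), against 25812, 22126 and 23843 TPM in Control (mean 23927 ± 1845, n = 3). The mitochondrially encoded subunits summed to 97588, 123240 and 115499 TPM in Zip10 cKO (mean 112109 ± 13158), against 106904, 116315 and 112491 TPM in Control (mean 111903 ± 4733). Both ranges overlapped, with Control 1 high on the nuclear side and Zip10 cKO 1 low on the mitochondrial side.

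The log2 ratio of nuclear to mitochondrial TPM was -2.08, -2.42 and -2.37 in Zip10 cKO (mean -2.29 ± 0.18, SD, n = 3), against -2.05, -2.39 and -2.24 in Control (mean -2.23 ± 0.17, n = 3). The difference of -0.062 was smaller than the spread in either group. It was 0.002 without mt-Atp8, -0.003 with the copies added and 0.027 from summed CPM, so its sign was not fixed. The highest ratio in each group came from library 1. Zip10 cKO 1 had the lowest mitochondrial sum of all libraries, and Control 1 the highest nuclear sum. By summed TPM Control 1 also had the lowest mitochondrial sum in Control, but this did not hold on the other scales. Control 3 was lower than Control 1 without mt-Atp8 (63805 against 65140 TPM) and by summed CPM (43603 against 44113 CPM). Of all counts, the mitochondrial genes took 3.34, 4.57 and 4.33% in Zip10 cKO and 4.40, 4.68 and 4.40% in Control.

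**Figure D5:**
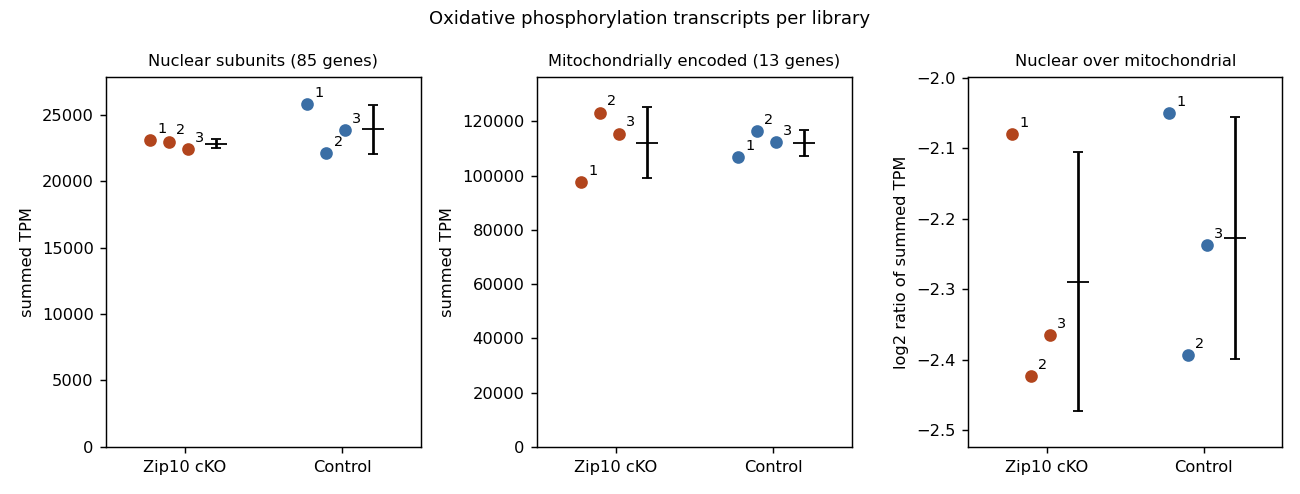
Summed TPM of the nuclear and of the mitochondrially encoded subunits and the log2 ratio of the sums, 1 point per library (numbers are replicates), with mean and SD beside each group. The Zip10 cKO and Control points overlap in all 3 panels.

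Related gene groups were read the same way, with 0 genes called in any of them by edgeR's quasi-likelihood test and 0.0% called overall. The 78 mitochondrial ribosomal protein genes encode products that translate the 13 mitochondrial messages. Of these genes, 75 had fold changes below 0 (50.6% of all genes), with a median of -0.14. At an unadjusted p under 0.05 there was 1, Mrps25 (-0.29 ± 0.10), where 6.46% of all genes passed. Mrps25 had 50.1, 56.4 and 53.4 CPM in Zip10 cKO and 70.3, 61.3 and 63.4 CPM in Control. The ribosomal protein genes too were highest in Control 1, and without it their median was -0.049 with 53 below 0 (50.2% of all genes). Without Zip10 cKO 3 it was -0.092. The 40 tested assembly factors outside the symbol rule had a median of -0.12 (31 below 0), or -0.055 (26 below 0) without Control 1 and -0.18 without Control 3, among them the complex I factor Acad9 (-0.23 ± 0.11) and the complex III factor Bcs1l (-0.23 ± 0.13). Of 8 further subunits and carriers 6 were below 0 (2 of 8 without Control 1, where the median was 0.021), including Atpif1, the ATP synthase inhibitor, at -0.25 ± 0.15.

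Of 16 tested transcriptional regulators of oxidative phosphorylation 7 were below 0 (median 0.013). These genes are long (median 3335 bases). With the length trend removed 9 of the 16 were below 0 (54.3% of all genes), with a median of -0.051. The nuclear subunits had a median of -0.065 there, with 70 of 81 below 0. Without Control 1 the regulators' median was -0.025. The coactivator gene Ppargc1b had 2.95, 1.89 and 2.34 CPM in Zip10 cKO, against 1.36, 1.14 and 1.75 CPM in Control, with no overlap (log2 fold change 0.75 ± 0.30, adjusted p = 0.747, edgeR's quasi-likelihood test). Myc had 117, 146 and 106 CPM in Zip10 cKO, against 158, 155 and 143 CPM in Control, overlapping by Zip10 cKO 2 (-0.31 ± 0.13, adjusted p = 0.747, same test). These were the only 2 of the 16 regulators with an unadjusted p under 0.05, where 6.46% of all genes passed.

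Of 24 genes for upkeep and expression of mitochondrial DNA 18 were below 0 (median -0.075, and -0.015 without Control 1), with the rRNA methyltransferase gene Tfb1m at -0.29 ± 0.17 and the single-strand binding protein gene Ssbp1 at -0.18 ± 0.12. Of 18 citric acid cycle genes 14 were below 0 (median -0.037, and -0.094 to 0.026 with each library left out in turn, highest without Zip10 cKO 3), with Pdhb, of pyruvate dehydrogenase, at -0.19 ± 0.10 and Ogdh at 0.16 ± 0.14. The mitochondrial ribosomal RNAs mt-Rnr1 and mt-Rnr2 had -0.040 ± 0.24 and 0.005 ± 0.22. Poly(A) selection limits what these 2 values can show.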

How the data were processed

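Uterine poly(A) RNA of 3 Zip10 cKO and 3 Control libraries was measured. The submitters' processing notes list RSEM 1.3.3, STAR 2.7.10a, edgeR 3.38.4, fastp 0.23.2 and R 4.2.1 with build GRCm39, and no source used here names the annotation or strandedness. Deposited by the authors were expected counts, in which shared reads are apportioned among genes, and TPM, per the file headers. TPM keeps no depth.

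Of 56748 gene IDs, 52073 (91.76%) matched a symbol, and gene types came from GENCODE M21. Expected counts were rounded, filtered with filterByExpr, TMM-scaled and tested with edgeR 4.0.16 (quasi-likelihood, Benjamini-Hochberg over all 16737 genes, threshold 0.05) in R 4.3.3. DESeq2 1.42.0 and limma 3.58.1 were alternatives. Copies were found with blastn 2.17.0, at 95% identity or more for mitochondrial genes and 97% or more for nuclear members. The fitting step was tested on simulated data with 200 of 16737 genes changed. At the same threshold it recovered 20% of 1.5-fold, 78% of 2-fold and 96% of 4-fold changes, with 18 false calls. Members and lists were chosen with earlier results of these data known. Named genes were the most abundant and smallest-p members of each complex, all mitochondrially encoded genes, isoform groups, and the 3 smallest-p genes of each list.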

Additional observations from a re-analysis of the deposited data

How the results depend on the processing

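Under 21 alternatives (other tools, normalizations and filters, TPM scales, a length trend, the copies added, each library left out) 0 members passed the threshold. The median of the nuclear subunits stayed below 0 in all of them, with -0.17 to -0.045 over the libraries left out in turn, and that of the mitochondrially encoded genes ran from -0.24 to -0.002 there. With a length trend removed and Zip10 cKO 1 left out, an alternative chosen after seeing the data like the copies added, unscaled libraries and the same trend without Control 1, the mitochondrial median was 0.036; the cause was not tested. The difference in log2 ratio ranged from -0.17 to 0.062. Whether replicate numbers pair the libraries was not settled (correlations of 0.092, 0.25 and 0.19, with 2 of 3 best with their own number). With a replicate block 0 members passed, with medians of -0.11 for nuclear and -0.14 for mitochondrially encoded genes. Of 1070 values of named members under the alternatives 1009 kept their sign and 61 turned, none past the threshold. With 3 libraries per group, fold changes of low genes such as Cox8b, and of genes that share reads with a copy, are the least certain.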
